A study of Homo sapiens with 4 samples.

Results

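Aminoacyl-tRNA synthetases are the enzymes that join each amino acid to its tRNA. Described here are 36 synthetase genes, 20 of them for the cytosol and 16 for mitochondria, out of 24305 genes with 1 symbol on the array. A gene was a member when the symbol in the authors' deposited comparison sheet equalled a listed symbol. No signal value entered that rule, but the list was drawn up with earlier results of these data known. The sheet holds older symbols, in which AARS stands for the gene now named AARS1 and a final 2 mostly marks the mitochondrial enzyme. All 36 members were found, in 42 rows of the sheet.

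The samples were cultures of MDA-MB231, an established human breast carcinoma line usually written with a second hyphen. Treated medium was concentrated DMEM diluted with a hypotonic saline held for 30 minutes in the dc DEP EMF from a unit called BEFE, short for Bio-Electric Field Enhancement. Control medium was made the same way with saline that had not been exposed, and cells of both groups grew for 3 days in their medium after 24 hours in DMEM with serum. Each medium has a gene-level and an exon-level sample, which makes 4 samples in 4 groups of 1.

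The labels speak of 5 biological replicates in the RNA quality check but do not say whether a column is 1 array, a pool or an average. No error, p-value or test between the media can therefore be given, and every difference below is a description of these columns. Values are log2 signals after RMA, which sets both media to a common distribution of signal, and a change common to nearly all genes would not show. In bulk cultures, a change in the share of cells and a change in RNA per cell cannot be told apart. Differences are treated minus control, and 1 on this scale is 2-fold.

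A gene was counted as measured when the mean of its 2 signals reached 7.17, the middle value among all probe sets that name a single gene. This floor left 12353 genes, and all 36 members passed it, also in each medium on its own. The line's markers VIM, CD44, ZEB1, MSN and SPARC were above the floor, and ESR1, PGR and CDH1 below it, while ERBB2 was above it at 8.41 in treated and 9.05 in control medium. Of 20 leukocyte, endothelial, blood and fibroblast markers, 6 were above the floor, none of them 2-fold different between the media, and 13 were below it. PECAM1 had no probe set with a single symbol. The leukocyte markers above the floor were CD68, at 12.22 in treated and 11.94 in control medium, and CD8A (8.06 and 7.81). PTPRC was at 3.81 in both media. The other markers above the floor were ESAM (9.99 and 10.19), CLDN5 (7.54 and 7.72), HBA1 (7.80 and 7.79) and COL1A1 (7.27 and 7.43).

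Cells keep separate sets of these enzymes for the proteins made in the cytosol and for the few proteins encoded by mitochondrial DNA, and nuclear genes encode both sets. GARS and KARS each serve both compartments from a single gene. EPRS joins the glutamate and the proline enzyme in a single protein, and the phenylalanine enzyme of the cytosol is built from the FARSA and FARSB subunits. Mitochondria charge glutamine tRNA by another route, through glutamate and an amidotransferase. When amino acids are short or translation initiation is stressed, the transcription factor ATF4 is made and binds the C/EBP-ATF response element, and many cytosolic synthetase genes are known targets of this response.

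The core of that element, TGATGNAA, was searched on both strands in the RefSeq promoters of the members (GRCh38.p14, 250 bases before to 50 after a gene's start). A promoter entry was found for 16 of the 20 cytosolic genes and for 14 of the 16 mitochondrial genes. DARS, LARS, VARS, YARS, AARS2 and VARS2 had no entry. The letters were found for 7 of 16 cytosolic genes (43.8%) and 1 of 14 mitochondrial genes (7.14%), against 4.46% of all 27305 genes in the table. Those 27305 are not limited to genes above the floor, as the members are. Of 9519 genes above the floor with an entry, 254 held the letters. The 8 matches are shown because the compartments differ in how many genes hold one. Capitals mark the match, and each sequence is the gene's strand 5′ to 3′, so a match on the opposite strand appears as the reverse complement. Sequences end at most 30 bases after the start.

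AARS, chr16:70289660-70289719, minus strand: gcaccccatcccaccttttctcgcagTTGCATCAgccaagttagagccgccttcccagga
CARS, chr11:3057394-3057451, minus strand: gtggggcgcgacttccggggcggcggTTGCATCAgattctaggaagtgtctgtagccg
GARS, chr7:30594819-30594878, plus strand: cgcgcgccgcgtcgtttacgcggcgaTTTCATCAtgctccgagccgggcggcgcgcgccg
IARS, chr9:92293677-92293736, minus strand: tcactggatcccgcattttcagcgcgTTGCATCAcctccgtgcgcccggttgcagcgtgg
MARS, chr12:57488038-57488097, plus strand: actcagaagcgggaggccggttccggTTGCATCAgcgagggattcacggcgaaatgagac
NARS, chr18:57621807-57621848, minus strand: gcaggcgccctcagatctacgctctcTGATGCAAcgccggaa
TARS, chr5:33440941-33440994, plus strand: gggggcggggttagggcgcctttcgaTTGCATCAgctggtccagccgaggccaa
YARS2, chr12:32756061-32756120, minus strand: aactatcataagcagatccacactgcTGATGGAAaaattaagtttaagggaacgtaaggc

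Except for GARS, the matched cytosolic genes carry the fuller form TGATGCAA, with 6 of 16 cytosolic genes holding it (37.5%), against 1.08% of all genes in the table and none of the 14 mitochondrial genes. Of the 9519 genes above the floor with an entry, 69 held TGATGCAA. That narrower form was chosen after the matches had been seen. Counting the gene's start as base 1 and the base before it as -1, the match begins at base -2 in CARS, -4 in MARS, -13 in IARS, -33 in GARS, 3 in TARS and 15 in NARS. In AARS it begins further upstream, at base -187, and in YARS2 at -197. CARS, GARS and TARS have a second promoter entry without the letters.

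The promoter of AARS, the alanine enzyme gene, is shown at greater length for the surroundings of its match.

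AARS, chr16:70289477-70289756, minus strand: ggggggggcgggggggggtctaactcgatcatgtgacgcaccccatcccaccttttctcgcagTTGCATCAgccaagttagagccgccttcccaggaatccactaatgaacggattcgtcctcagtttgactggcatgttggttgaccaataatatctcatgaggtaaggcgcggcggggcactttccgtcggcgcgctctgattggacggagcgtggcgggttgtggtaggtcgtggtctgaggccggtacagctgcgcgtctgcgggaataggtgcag

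In treated medium the cytosolic set stood higher than in control medium for most of its genes, while the mitochondrial set stood slightly lower. The 20 cytosolic genes had a median difference of 0.48 (quartiles -0.06 and 1.10), and 14 of them were above 0. The 16 mitochondrial genes had a median of -0.23 (quartiles -0.38 and 0.05), and 5 were above 0. Over all genes above the floor the median was -0.01 (quartiles -0.26 and 0.25), with 49.2% above 0.

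Past 2-fold higher were 7 cytosolic genes and none of the mitochondrial ones, against 3.22% of all genes above the floor. No member of either compartment was 2-fold lower, against 3.46% of all genes. At 1.5-fold, 9 cytosolic genes were higher (9.46% of all genes) and no member was lower (9.74% of all genes). The other 27 members, all 16 mitochondrial ones among them, lay within 1.5-fold of no difference.

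**Figure D1:**
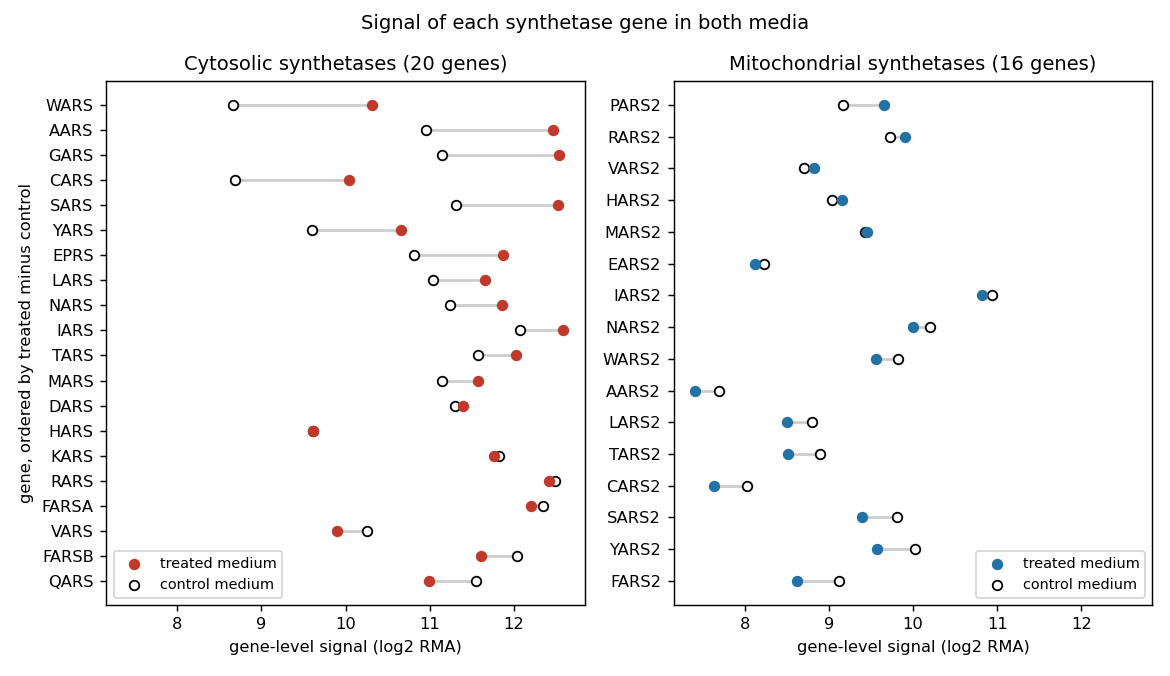
Gene-level log2 RMA signal (x axis) of the 20 cytosolic genes, left, and the 16 mitochondrial genes, right, with filled points for treated and open points for control medium (1 column each, no error) and genes ordered by treated minus control. The filled point lies right of the open one for 14 cytosolic and 5 mitochondrial genes.

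WARS, the tryptophan enzyme gene, had the largest difference of the members. Its signal was 10.31 in treated and 8.66 in control medium, a difference of 1.65, or 3.14-fold (transcript cluster 16796694). Of all genes above the floor, 0.818% had a larger difference.

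AARS had a signal of 12.47 in treated and 10.96 in control medium, 2.85-fold higher. GARS, the glycine enzyme gene that also supplies mitochondria, had 12.54 in treated and 11.14 in control medium, 2.64-fold higher. The cysteine enzyme gene CARS had 10.04 in treated and 8.68 in control medium, 2.56-fold higher. These 3 genes carry the promoter letters shown above, and WARS has 2 promoter entries without them.

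SARS, the serine enzyme gene, had signals of 12.53 in treated and 11.31 in control medium, 2.33-fold higher. The nearest to the threshold on its upper side were YARS, the tyrosine enzyme gene, and EPRS. YARS had 10.66 in treated and 9.60 in control medium, 2.08-fold higher, and EPRS had 11.87 and 10.81, 2.07-fold higher.

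The next genes lay well under 2-fold, with a gap between EPRS at 1.05 and LARS at 0.62. LARS, the leucine enzyme gene, had a signal of 11.66 in treated and 11.04 in control medium. NARS, the asparagine enzyme gene, had 11.86 in treated and 11.24 in control medium, also a difference of 0.62. These 2 genes complete the 9 past 1.5-fold.

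Below them, 3 enzyme genes lay close together. IARS (isoleucine) had 12.59 in treated and 12.07 in control medium, TARS (threonine) 12.02 and 11.58, and MARS (methionine) 11.58 and 11.14. Their differences were 0.52, 0.45 and 0.44, so each was higher in treated medium by less than 1.5-fold.

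Another 4 cytosolic genes were close to equal in both media. DARS, the aspartate enzyme gene, had 11.39 in treated and 11.30 in control medium. HARS, the histidine enzyme gene, had 9.61 in both media. KARS, the lysine enzyme gene, had 11.77 in treated and 11.83 in control medium, and RARS, the arginine enzyme gene, had 12.42 and 12.49.

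The remaining 4 cytosolic genes were lower in treated medium by more than 0.1. FARSA, the catalytic subunit of the phenylalanine enzyme, had 12.21 in treated and 12.34 in control medium, and its partner subunit gene FARSB had 11.60 and 12.03. VARS, the valine enzyme gene, had 9.90 in treated and 10.26 in control medium. QARS, the glutamine enzyme gene, was the lowest of all members, with 10.99 in treated and 11.55 in control medium, a difference of -0.56, or 1.47-fold lower.

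Of the mitochondrial genes PARS2, for proline, had the highest difference, with 9.65 in treated and 9.17 in control medium (0.49). It was 1.40-fold higher and the only mitochondrial gene above 0.2. RARS2 (arginine) followed at 9.90 in treated and 9.73 in control medium, and HARS2 (histidine) at 9.16 and 9.04.

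VARS2, the mitochondrial valine enzyme gene, had 7 transcript clusters, of which the brightest, with 8.83 in treated and 8.70 in control medium, stands for the gene. All 7 clusters had a difference above 0, between 0.05 and 0.29, and clusters of 1 gene share sequence. MARS2 (methionine) had 9.46 in treated and 9.43 in control medium. These were the 5 mitochondrial genes above 0.

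The other 11 mitochondrial genes had lower signals in treated medium, all by less than 1.5-fold. FARS2 (phenylalanine) was the lowest, with 8.63 in treated and 9.12 in control medium, a difference of -0.50. YARS2 (tyrosine) had 9.57 in treated and 10.02 in control medium, SARS2 (serine) 9.39 and 9.81, and CARS2 (cysteine) 7.64 and 8.03. AARS2 (alanine), at 7.42 in treated and 7.69 in control medium, lay nearest to the floor of all members.

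Differences of the other 6 mitochondrial genes lay between -0.37 and -0.11. TARS2 (threonine) had 8.52 in treated and 8.89 in control medium, LARS2 (leucine) 8.50 and 8.80, and WARS2 (tryptophan) 9.56 and 9.82. NARS2 (asparagine) had 10.00 in treated and 10.20 in control medium, IARS2 (isoleucine) 10.82 and 10.94, and EARS2 (glutamate) 8.12 and 8.23. Thus the mitochondrial tryptophan, alanine, cysteine, serine and tyrosine genes, whose cytosolic counterparts were past 2-fold, were each below 0. EPRS, also past 2-fold, serves 2 amino acids, and of its counterparts EARS2 was below 0 and PARS2 above it.

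Each mitochondrial gene was then set beside the cytosolic gene for the same amino acid, which gave 16 pairs. EPRS was used for both glutamate and proline, and the mean of FARSA and FARSB for phenylalanine. GARS, KARS, QARS and DARS entered no pair, and the mitochondrial aspartate enzyme was not analysed here. The cytosolic member had the more positive difference in 13 of 16 pairs, with a median gap of 0.82 (quartiles 0.36 and 1.54). Raising the floor to the 75th percentile of signal left 9 mitochondrial genes. There the cytosolic member was the more positive in 7 of 9 pairs, and the mitochondrial median was -0.12. In 6 of the 16 pairs the gap was at least 2-fold toward the cytosolic gene, and in none toward the mitochondrial gene.

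The gap between the differences was largest for tryptophan, at 1.91 (WARS 1.65, WARS2 -0.26). For alanine it was 1.79 (AARS 1.51, AARS2 -0.28), and for cysteine 1.75 (CARS 1.36, CARS2 -0.39). In all 3 the cytosolic difference was positive and the mitochondrial one negative.

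The same held for serine with a gap of 1.64 (SARS 1.22, SARS2 -0.42), tyrosine with a 2.84-fold gap (YARS 1.05, YARS2 -0.45) and glutamate with 1.16 (EPRS 1.05, EARS2 -0.11). Leucine, asparagine, threonine and isoleucine had gaps of 0.92, 0.82, 0.82 and 0.64, again with opposite signs in the 2 compartments. Proline and methionine differed in that both members were above 0, with gaps of 0.57 (EPRS and PARS2) and 0.41 (MARS and MARS2). For phenylalanine both compartments were below 0, with a gap of 0.22.

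In histidine, arginine and valine the mitochondrial member was the more positive, with gaps of -0.12, -0.25 and -0.48. HARS and HARS2 are neighbours that start in opposite directions, and their promoter entries overlap by 184 bases. Their differences of 0.00 and 0.12 were both small.

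**Figure D2:**
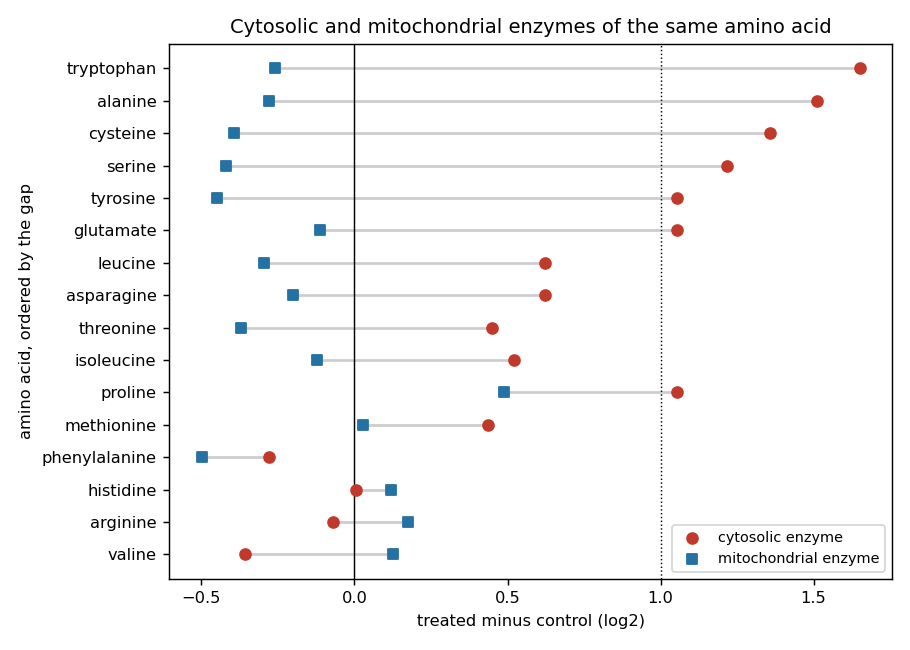
Treated minus control (x axis, log2) for the cytosolic (circle) and mitochondrial (square) enzyme of each amino acid, ordered by the gap, with a dotted line at 2-fold and no error since each medium has 1 column. In 13 of 16 amino acids the circle lies right of the square, and tryptophan has the widest gap.

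Synthetases belong to 2 unrelated structural classes, and both classes held genes past 2-fold. The 9 cytosolic class I genes had a median difference of 0.52 with 3 past 2-fold, and the 10 cytosolic class II genes had 0.27 with 3 past 2-fold. The share past 2-fold higher over all genes above the floor was 3.22%. EPRS holds a domain of each class and was left out of both. The mitochondrial medians were -0.12 in class I (9 genes) and -0.28 in class II (7 genes).

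In the cytosol, 8 of the genes encode enzymes of the multi-synthetase complex, a large assembly held together by scaffold proteins. These 8 had a median difference of 0.27, and EPRS was the 1 past 2-fold. The 12 cytosolic genes outside the complex had a median of 0.84, and 6 were past 2-fold. Over all genes above the floor, 3.22% were past 2-fold higher, and the contrast between the 8 and the 12 genes was not tested. Within the complex LARS, IARS and MARS were above 0.4 while QARS, RARS and KARS were below 0. The scaffold gene AIMP1 had 9.92 in treated and 9.89 in control medium, AIMP2 had 10.69 and 11.30 and was 1.52-fold lower, and EEF1E1 had no probe set with a single symbol.

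The 7 cytosolic genes whose promoters hold the letters were all above 0, between 0.44 and 1.51. Their median was 0.62 and 3 were past 2-fold, against 3.22% of all genes above the floor. The 9 cytosolic genes with an entry but no match had a median of -0.06 and ranged from -0.56 to 1.65. Among them WARS, SARS and EPRS were past 2-fold, so the largest difference belongs to a gene without a match in this window. YARS2, the mitochondrial gene with a match, was at -0.45.

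Of the 12353 genes above the floor, 9519 had a promoter entry and 2834 had none and were left out of this split. The 254 with the letters had a median difference of 0.13 and 12.6% past 2-fold higher, and the 9265 with an entry but without the letters had a median of -0.01 and 2.80%. With TGATGCAA the median was 0.33 over 69 genes, of which 18.8% were past 2-fold higher. The 9450 with an entry but without TGATGCAA had a median of -0.01 and 2.94%. This narrower form was chosen after the members' matches had been seen. These counts include the members, and a match is a description of letters and not of binding.

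The exon-level table gives many probe sets for each gene from the same hybridisations. No table used here pairs them with genes, so a probe set was taken for a gene when its number lay between that gene's transcript cluster and the next one. Over 26802 clusters with at least 3 such sets, the gene-level difference correlated with the exon-level median at r = 0.964, and at 0.041 with that of the next cluster, where clusters are not independent replicates. KARS and NARS had no probe set under this rule and PARS2 had 2, which left 33 members.

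The compartments were then set side by side at exon level. Of 413 exon-level sets of cytosolic genes above the exon-level floor of 7.34, 291 (70.5%) were positive and 122 (29.5%) at least 2-fold higher. Of 231 sets of mitochondrial genes, 78 (33.8%) were above 0 and none was 2-fold higher, against 49.8% above 0 and 4.59% 2-fold higher among all 176432 exon-level sets above that floor. Below that floor, 1 set of AARS2, 2 of CARS2 and 4 of VARS2 were 2-fold higher. Probe sets of 1 gene share their RNA, so these are not separate observations.

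The counts for single genes cover all of a gene's sets, with those above the floor of 7.34 given beside them where they differ. All 20 sets of AARS, each above that floor, were positive and 19 passed 2-fold, with quartiles of 1.44 and 1.66. SARS was positive in all 19 sets and past 2-fold in 14, and above the floor in all 17 and in 13. GARS had 23 of 24 sets above 0 and 20 past 2-fold, and above the floor 16 of 17 and 14, so 6 of its sets past 2-fold lay below the floor. CARS had 26 of 27 sets above 0 and 20 past 2-fold, and above the floor 23 of 23 and 17. YARS had 21 of 22 and 15, and above the floor 17 of 17 and 13. EPRS had 34 of 36 and 21, and above the floor 32 of 32 and 20. YARS had an exon-level median of 1.24, against 1.05 at gene level, the largest gap between the summaries among the members.

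At the other end, FARS2 and YARS2 had none of their 10 and 9 sets above 0, of which 8 and 7 had a signal above the floor, and QARS had 2 of 31, and 2 of the 28 with a signal above the floor. FARSB had 1 of 19 sets above 0 and none of 18 above the floor, TARS2 2 of 20 and 1 of 14, and SARS2 2 of 16 and 1 of 15. Most probe sets of these genes thus lay on the same side of 0. HARS, at 0.00, had 8 of 16 sets above 0, and 8 of 14 above the floor.

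**Figure D3:**
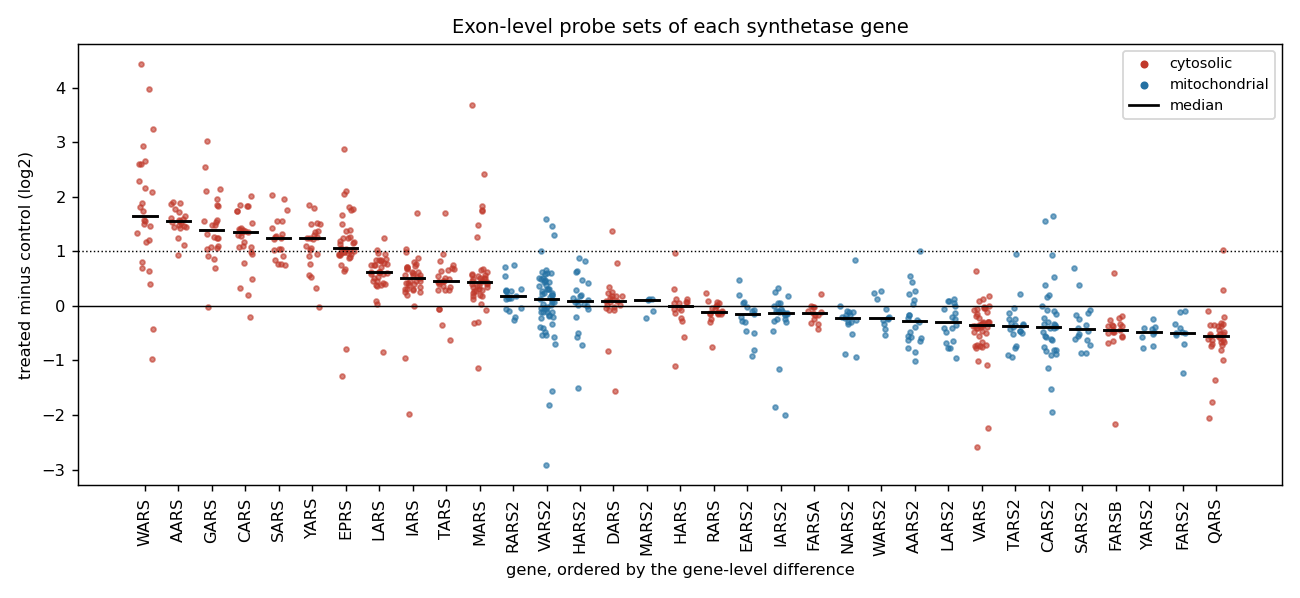
Treated minus control (y axis, log2) of every exon-level probe set of the 33 members with at least 3 sets, 1 point per set with the median as a bar, cytosolic in red and mitochondrial in blue, ordered by the gene-level difference. AARS is tight around 1.55 while WARS runs from -0.98 to 4.43.

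WARS had the widest quartile range of the members past 2-fold. Of its 26 sets 24 were above 0 and 20 at least 2-fold higher, with quartiles of 1.18 and 2.52, and above the floor 21 of 22 and 18. In order of number, the 4 sets at places 21 to 24 had signals of 10.09 to 12.53 in treated and 6.85 to 8.56 in control medium, with differences of 2.65 to 4.43 and a median of 3.60. The other 22 sets had a median of 1.52 and reached 2.92 at place 18, which is above the 2.65 of place 23, with 2.60 at place 3 and 2.59 at place 20. The 4 sets are therefore not set apart from all others of the gene.

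The brightest WARS sets showed smaller differences than those 4. The 11 sets with a control signal of at least 9 had 12.35 to 13.71 in treated and 9.75 to 12.38 in control medium, with differences of 1.17 to 2.60. Which exons the numbers stand for is not given in the sources used here, and the places were picked after their values were seen.

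**Figure D4:**
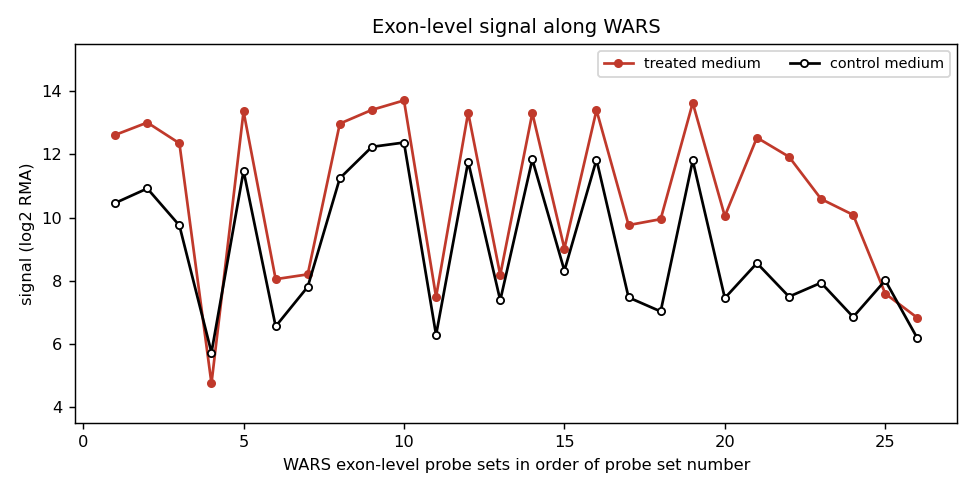
Log2 RMA signal (y axis) of the 26 exon-level probe sets of WARS in order of number (x axis), filled points for treated and open points for control medium, 1 column each. The widest differences, 3.24 to 4.43, are at places 21, 22 and 24, and place 18 (2.92) is wider than place 23 (2.65).

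MARS was uneven too, in sets with low signals. Its 43 sets had a median of 0.44, and 7 were at least 2-fold higher (3 of them above the floor), with 4.89 to 9.26 in treated and 3.64 to 7.52 in control medium. The other 36 MARS sets reached 13.12 in control medium, so the sets past 2-fold were among the dimmer ones of the gene.

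The synthetases were set beside other genes of tRNA and amino acid metabolism. The lists were fixed with earlier results of these data known, so their counts are no independent support. The amino acid response list, which holds ATF4 and genes it is known to control, had a median of 1.44. Each of its 20 genes was positive and 16 were past 2-fold, against 3.22% of all genes above the floor. DDIT3 and ATF3, counted in both, were below the floor in control medium (6.53 and 6.71). They passed the floor only through their treated signals (9.24 and 7.89). CHAC1, which degrades glutathione, had 11.70 in treated and 7.70 in control medium, and the mTORC1 regulator gene SESN2 had 12.24 and 8.34. ASNS, which makes asparagine, had 10.48 in treated and 7.78 in control medium, and DDIT3, a stress transcription factor gene, had 9.24 and 6.53. The smallest of these 4 differences, that of ASNS, was 6.51-fold, and no synthetase reached it.

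Of 19 tRNA export and end processing genes above the floor, 13 were below 0, beside 6253 of all 12353 genes above it. None of the 19 was 2-fold different, and the median was -0.30. At 1.5-fold, 2 were higher (9.46% of all genes) and 4 were lower (9.74% of all genes). The higher ones were TSEN15, a tRNA splicing endonuclease subunit gene (11.35 in treated and 10.54 in control medium), and XPOT, the tRNA exporter gene (12.60 and 11.87). Among the lower ones were POP1, an RNase P subunit gene (7.96 and 8.82), and TSEN34, another splicing endonuclease subunit gene (8.12 and 8.96).

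Of 15 mitochondrial tRNA and translation partners above the floor, 9 were above 0, against 49.2% of all genes. None of the 15 was 2-fold different, and their median was 0.07. MTRF1, a mitochondrial release factor gene, had 9.18 in treated and 8.55 in control medium. GATC and QRSL1, subunits of the amidotransferase that completes mitochondrial glutamine tRNA, had differences of 0.46 and 0.31. The gene of its other subunit, PET112, was below the floor, with 6.89 in treated and 6.95 in control medium (-0.06). MTFMT, which formylates initiator methionine tRNA, had -0.48.

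The 8 cytosolic elongation and release factor genes had a median of 0.08 and lay between -0.13 and 0.38. EEF2, which moves the ribosome along, had 13.35 in treated and 13.24 in control medium. Of 4 editing and related charging genes, SEPSECS, which makes selenocysteine on its tRNA, was 1.53-fold higher and the list's median was 0.23. None of these lists has a test behind it, so nothing is called particular to any of them.

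**Figure D5:**
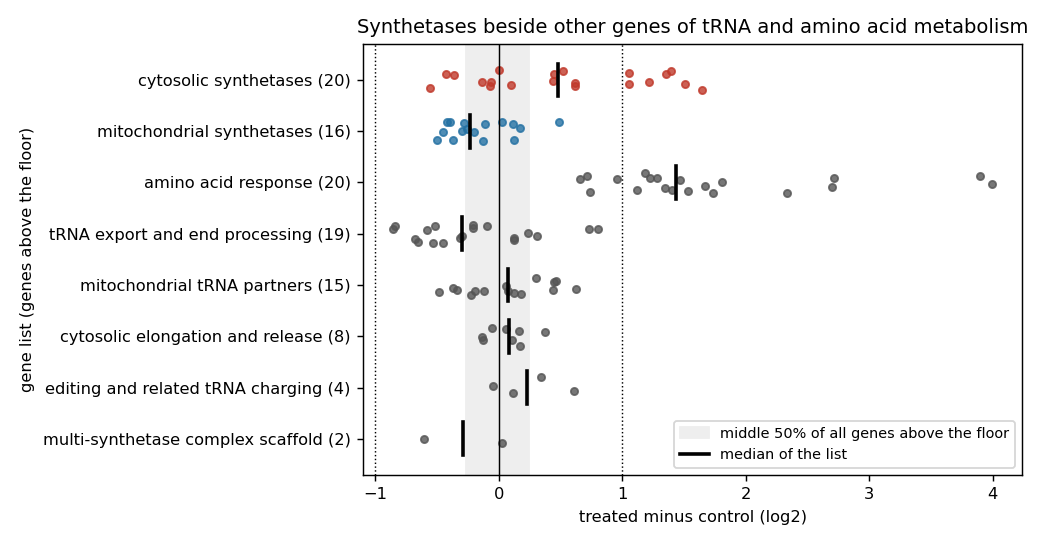
Treated minus control (x axis, log2) of each gene above the floor in 8 lists (y axis, number of genes in brackets), with the median as a bar, dotted lines at 2-fold and the middle 50% of all genes shaded. In the picture 16 of 20 amino acid response genes and 7 of 20 cytosolic synthetases lie past 2-fold, and no mitochondrial synthetase does. Among the 16, DDIT3 and ATF3 were below the floor in control medium. Of all genes above the floor, 3.22% were past 2-fold higher. The lists were fixed with earlier results of these data known.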

How the data were processed

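The authors deposited log2 signals at gene level (53617 probe sets) and exon level (352859), summarised by Affymetrix Expression Console (RMA), as the submitters' processing notes state. Tool versions, pooling and genome build are not given in the sources used here. The deposited sheet adds linear intensity per medium and a ratio of control over treated. The sheet's intensities equalled the antilog of the gene-level log2 values within 5.03e-05 on the log2 scale. The 5391 probe sets in both tables had identical values, so exon level is no replicate.

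Gene names came from 25937 probe sets with 1 symbol. The cluster with the highest mean signal stood for a gene. Current names came from RefSeq (GRCh38.p14), by accession for 32 members, by symbol for 3 and by older symbol for 1. Calculations used Python 3.11.15, pandas 2.3.3 and numpy 2.4.6. Simulated data with little noise checked only the choice of 1 cluster per gene and the 2-fold count. The pairs, the exon-level rule and the promoter search were not checked in that way. All members were to be accounted for, with partner genes named by size of difference. QRSL1, PET112 and EEF2 were named outside that order. MTO1 (0.45) and EEF1A2 (0.38), for example, had larger differences and were not named. Members and lists were chosen with earlier results of these data known. Precision on arrays is limited by how many were hybridised, and here there is 1 column per medium. Alternatives were other floors, scalings, thresholds and summaries.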

Additional observations from a re-analysis of the deposited data

How the results depend on the processing

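No paired analysis was possible because each group has 1 column of values. The count of 7 cytosolic genes at least 2-fold higher was 7 under the other floors, both other scalings, the mean of all clusters and exon-level medians, 6 without GARS and KARS, and 9 at 1.5-fold. No mitochondrial gene was 2-fold lower under any of these. The cytosolic count could not change with the floors, since all 20 cytosolic genes passed each of them. Nor could it change with the mean of all clusters, since only VARS2 had more than 1 cluster. The scalings shifted members by medians of 0.02 and 0.03, and exon-level medians come from the same hybridisations. These settings are thus no independent support for the count. With a floor at the 75th percentile, which left 9 mitochondrial genes and 9 pairs, the mitochondrial median was -0.12, the median gap 0.64, and 7 pairs had the more positive cytosolic member. Median centring gave medians of 0.50 (cytosolic) and -0.21 (mitochondrial). Quantile normalization gave 0.50 and -0.20, with a median gap of 0.81. Exon-level medians by number, chosen after seeing the data, gave a mitochondrial median of -0.22 and a median gap of 0.87 over 14 pairs. No member changed sign under either scaling. The planned exon-level summary from a table that pairs probe sets with genes was not run, as no such table was used here. With 1 column per medium, differences near the 2-fold threshold, such as those of YARS and EPRS, could fall on either side in other cultures, and that was not tested.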
